A study of Mus musculus with 4 samples.

Results

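The 7 genes *Gata4*, *Gata6*, *Sox17*, *Sox7*, *Pdgfra*, *Dab2* and *Sparc* are regulators and early products of the primitive endoderm. They were taken by symbol from a table of 24421 gene entries, and all 7 were found. The table holds RNA-seq of 4 cultures of the wild type mouse R1 ESC line, with 1 library per condition. EpiLCs were collected 72 h post-induction from medium with 30 ng/ml FGF2 and 0.6 µM JAK inhibitor, and their comparison is with ESCs. The labels describe the ESC library by an ESC medium with 1000 U/mL LIF. By the study's methods, however, these cells had been plated with 1 µM PD0325901, a MEK inhibitor, 3 µM CHIR99021, a GSK3 inhibitor, and LIF. The labels list both inhibitors for the EpiLC library. By the methods EpiLCs were induced from cells plated in this way, first in ESC medium without LIF. The other ESC cultures received 10 µM EED226 or DMSO for 48 h in ESC medium with LIF. EED226 binds EED and inhibits PRC2, the complex that trimethylates histone H3 at lysine 27. ESCs were maintained on fibroblast feeder cells, which were removed by plating before EpiLC induction. By the methods the collected ESCs came from this plating too. The methods do not say whether feeder cells were removed for the EED226 and DMSO cultures.

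In the blastocyst, cells of the inner cell mass become either epiblast, which ESCs resemble, or primitive endoderm, which gives rise to the parietal and visceral endoderm of the yolk sac. FGF signalling through ERK raises GATA6 in the future endoderm, while NANOG marks the epiblast and GATA6 and NANOG oppose each other. GATA4, SOX17 and SOX7 act after GATA6, PDGFRA is a surface receptor of these cells, DAB2 is an endocytic adaptor of the endoderm surface, and SPARC is a calcium-binding glycoprotein secreted with the basement membrane. Many genes of this kind are silent in ESCs and carry the mark made by PRC2.

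Reference promoter windows were read for the members that had one, because *Dab2* and *Pdgfra* had the highest EpiLC ratios of the 7 genes and *Dab2* has 2 annotated starts. Windows of 300 bases from 250 before to 50 after a RefSeq start on GRCm38.p6 were matched for 3 of the 7 genes, *Dab2*, *Pdgfra* and *Sparc*. *Gata4*, *Gata6*, *Sox17* and *Sox7* are named only. The outer *Dab2* start, the inner *Dab2* start and the *Pdgfra* start are printed 5′ to 3′, with matches to the GATA motif in capitals.
Dab2, chr15:6299539-6299838, plus strand: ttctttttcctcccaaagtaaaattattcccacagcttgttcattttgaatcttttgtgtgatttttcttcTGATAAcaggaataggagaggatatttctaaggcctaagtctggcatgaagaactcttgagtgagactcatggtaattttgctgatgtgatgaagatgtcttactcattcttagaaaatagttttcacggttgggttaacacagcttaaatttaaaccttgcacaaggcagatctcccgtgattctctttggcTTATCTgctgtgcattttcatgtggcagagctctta
Dab2, chr15:6386498-6386797, plus strand: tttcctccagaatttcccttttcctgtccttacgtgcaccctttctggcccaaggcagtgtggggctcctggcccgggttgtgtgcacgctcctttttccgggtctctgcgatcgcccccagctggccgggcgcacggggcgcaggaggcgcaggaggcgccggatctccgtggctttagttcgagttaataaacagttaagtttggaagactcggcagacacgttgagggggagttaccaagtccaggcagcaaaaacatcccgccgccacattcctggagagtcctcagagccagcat
Pdgfra, chr5:75152001-75152300, plus strand: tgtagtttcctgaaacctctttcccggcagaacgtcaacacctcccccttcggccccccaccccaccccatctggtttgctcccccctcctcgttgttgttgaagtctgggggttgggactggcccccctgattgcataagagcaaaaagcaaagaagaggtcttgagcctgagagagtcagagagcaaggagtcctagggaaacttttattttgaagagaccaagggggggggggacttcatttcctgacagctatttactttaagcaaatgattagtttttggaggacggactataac
The GATA motif was searched as AGATAA, its variant ending in G (AGATAG) and the versions of both that begin with T (TGATAA and, with final G, TGATAG), on both strands. The SOX motif was searched as ACAAT on both strands. The outer *Dab2* window held 2 GATA matches, and the inner *Dab2*, *Pdgfra* and *Sparc* windows held 0. No window held the SOX letters. Of 32851 mouse promoter windows of the same length, 29.8% held a GATA match and 31.0% a SOX match, so these letters are common. The windows differed in CpG content. The outer *Dab2* window had 2 CpG sites and the inner one 19, against 5 in the *Pdgfra* window, 4 in the *Sparc* window (chr11:55420031-55420330, minus strand) and a median of 7 over all promoters. Of all promoters, 73.5% had as few CpG sites as the inner *Dab2* window or fewer, and 23.3% as few as the outer one. The reads are counted per gene, so they do not show which *Dab2* start was used.

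The libraries held 34440050 reads on genes for EpiLCs, 47622558 for ESCs, 46789589 with EED226 and 38863803 with DMSO. Levels are TPM, reads per base of gene length scaled to a fixed total per library. Ratios carry exact 95% binomial intervals based on how reads of the gene divided between both libraries, and levels carry exact Poisson intervals. These cover counting error only. No condition was repeated, so no p-value is given. Genes are called higher or lower from a 2-fold difference, or 1.5-fold for EED226 over DMSO, with 0.1 TPM added to each value. ESC markers were lower in EpiLCs for 10 of 10 listed genes, beside 11.6% of all genes. *Pou5f1* was at the limit, with a ratio of 0.499. EpiLC markers were higher for 6 of 7, beside 29.2% of all genes. With the dependence of the ratios on gene length taken out, these counts were 9 of 10 and 5 of 7. The higher EpiLC markers include *Fgf5* at 75.5 TPM in EpiLCs and 0.170 TPM in ESCs. The ESC cultures with EED226 or DMSO also had *Fgf5*, at 10.4 and 9.91 TPM, so the DMSO library stands between the EpiLC and ESC libraries for this marker. *Pou3f1*, *Dnmt3a* and *Sall2* with DMSO lay between them as well. *Dnmt3b*, *Otx2* and *Lin28b* had 472, 90.8 and 33.6 TPM with DMSO, above the EpiLC values of 446, 67.1 and 31.1 TPM. In DMSO over ESCs, 5 of the 7 EpiLC markers were higher, beside 15.6% of all genes, and 3 of the 10 ESC markers lower, beside 9.02%. No library had *Afp*, and *Ttr* had 3 reads in EpiLCs and 0 elsewhere, both markers of mature visceral endoderm. In bulk RNA, more cells of a type and more RNA per cell cannot be told apart.

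Levels of the 7 genes spanned from 0.0533 TPM for *Gata6* with DMSO to 456 TPM for *Sparc* in ESCs. The genes fell into ranges, with *Sparc* above 100 TPM in every library, *Dab2* and *Gata4* between 1 and 20 TPM, *Sox7* near 1 TPM, and *Gata6*, *Sox17* and *Pdgfra* below 1 TPM in every library. The low genes rested on few reads, 3 to 36 for *Gata6* and 7 to 22 for *Sox17*. The transcription factors of the group were thus detected at low level in all 4 cultures, beside abundant ESC regulators such as *Pou5f1* at 1109 to 2222 TPM. The DMSO library had the lowest value for 6 of the 7 genes, all but *Dab2*. By counting error it was separated from the next library for *Gata4* and *Sparc* only. The share of all genes with DMSO lowest was not counted.

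**Figure D1:**
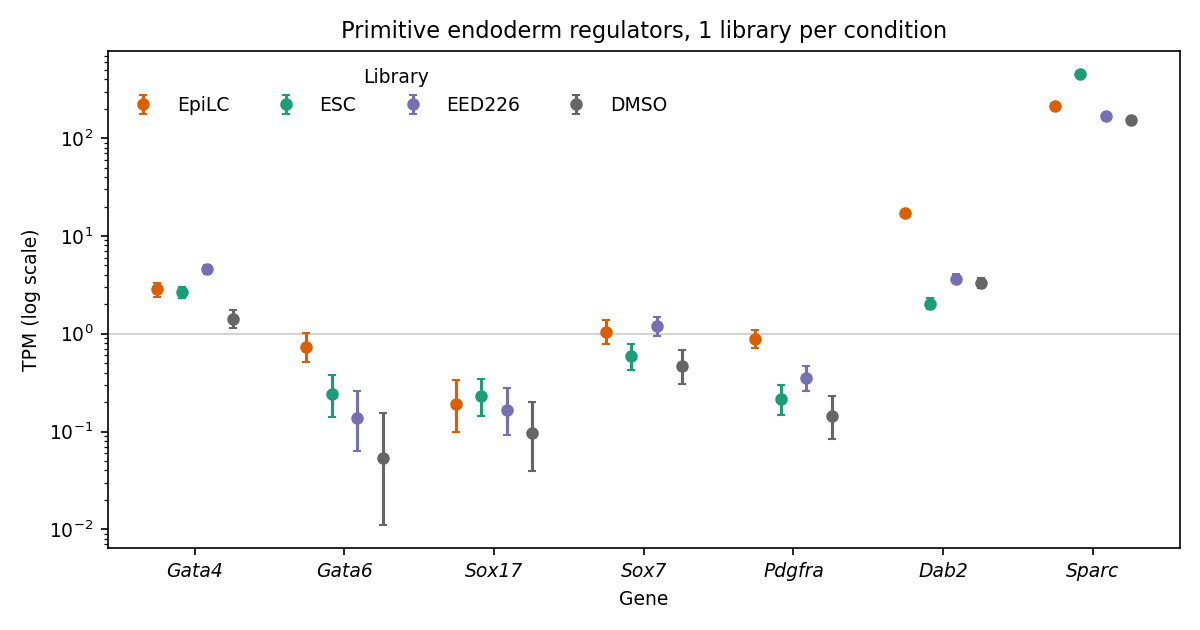
Level of each gene in the EpiLC, ESC, EED226 and DMSO libraries, in TPM on a log axis, with exact 95% Poisson counting intervals. The grey line marks 1 TPM. *Sparc* lies above 100 TPM in all 4 libraries, *Gata6*, *Sox17* and *Pdgfra* lie below 1 TPM in all 4, and *Dab2* is highest in EpiLCs at 17.3 TPM.

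*Gata4*, which encodes a zinc finger transcription factor of endoderm and heart, was the gene with the largest EED226 ratio. It had 2.84 TPM in EpiLCs (147 reads), 2.66 TPM in ESCs (212 reads), 4.54 TPM with EED226 (316 reads) and 1.42 TPM with DMSO (85 reads). The EED226 library was highest and the DMSO library lowest, while EpiLCs and ESCs were not separated by counting error, with a ratio of 1.07 (0.860 to 1.33). The EED226 value was 3.19-fold that of DMSO (2.51 to 4.11). Against the untreated ESC library, the EED226 value was 1.71-fold (1.43 to 2.05), and the DMSO value was 0.536-fold (0.411 to 0.692). *Gata4* lies on chromosome 14, 63198922 to 63271692, minus strand, of GRCm38.

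*Gata6*, the earliest transcription factor of the primitive endoderm fate, was highest in EpiLCs. It had 0.738 TPM in EpiLCs (36 reads), 0.240 TPM in ESCs (18 reads), 0.137 TPM with EED226 (9 reads) and 0.0533 TPM with DMSO (3 reads). The EpiLC library lay above all others, and the ratio of EpiLCs over ESCs was 3.08 (1.71 to 5.77). ESCs, EED226 and DMSO were not separated from their neighbours in this order. The ratio of EED226 over DMSO was 2.58, with an interval of 0.643 to 14.8 that includes 1. With DMSO over ESCs it was 0.223 (0.0420 to 0.763). *Gata6* lies on chromosome 18.

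The SOX factors of the group differed in depth and in pattern. *Sox7* had 1.04 TPM in EpiLCs (52 reads), 0.586 TPM in ESCs (45 reads), 1.20 TPM with EED226 (80 reads) and 0.469 TPM with DMSO (27 reads). The EED226 and EpiLC libraries formed the upper pair and the ESC and DMSO libraries the lower pair, with no separation inside either pair. The *Sox7* ratio was 2.55 for EED226 over DMSO (1.63 to 4.10) and 1.78 for EpiLCs over ESCs (1.17 to 2.72). *Sox17* had 0.192 TPM in EpiLCs (12 reads), 0.228 TPM in ESCs (22 reads), 0.167 TPM with EED226 (14 reads) and 0.0971 TPM with DMSO (7 reads). No neighbouring libraries were separated for *Sox17*, and its EED226 ratio of 1.72 had an interval of 0.649 to 5.03. At these depths a change of *Sox17* of about that size was not detectable. *Sox7* lies on chromosome 14, 63943673 to 63950732, plus strand, and *Sox17* on chromosome 1, 4490931 to 4497354, minus strand. Of the exonic bases of *Sox17*, 16.8% are shared with *Gm37587* on the opposite strand, and whether the counting used strand was not given in the sources used here.

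*Pdgfra*, the receptor for PDGF ligands, was higher in EpiLCs and, at a lower level, with EED226. It had 0.885 TPM in EpiLCs (91 reads), 0.214 TPM in ESCs (34 reads), 0.355 TPM with EED226 (49 reads) and 0.143 TPM with DMSO (17 reads). By counting error EpiLCs lay above EED226, and EED226 above ESCs and DMSO, which were not separated. The ratio of EpiLCs over ESCs was 4.13 (2.75 to 6.31) and that of EED226 over DMSO 2.48 (1.40 to 4.59). Long genes as a class had higher EpiLC ratios, and once this dependence on length was taken out the *Pdgfra* log2 ratio for EpiLCs over ESCs was 0.91 in place of 1.65, which is under 2-fold. The same correction turned the direction of EED226 over ESCs, with a *Pdgfra* log2 ratio of -0.11 in place of 0.53, so the order of these libraries was not settled. *Pdgfra* lies on chromosome 5, 75152292 to 75198215, plus strand, and shares 4.55% and 1.66% of its exonic bases with opposite-strand transcripts.

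*Dab2* had the largest EpiLC ratio of the 7 genes. It had 17.3 TPM in EpiLCs (1219 reads), 2.04 TPM in ESCs (222 reads), 3.65 TPM with EED226 (346 reads) and 3.29 TPM with DMSO (268 reads). EpiLCs stood far above the other libraries, EED226 and DMSO were not separated, and ESCs were lowest. The *Dab2* ratio was 8.47 for EpiLCs over ESCs (7.33 to 9.81), 1.11 for EED226 over DMSO (0.943 to 1.31) and 1.61 for DMSO over ESCs (1.35 to 1.94). *Dab2* lies on chromosome 15, 6299788 to 6440712, plus strand.

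*Sparc* was highest in ESCs, the library in which *Dab2* was lowest. It had 213 TPM in EpiLCs (8566 reads), 456 TPM in ESCs (28306 reads), 168 TPM with EED226 (9088 reads) and 154 TPM with DMSO (7177 reads). All neighbouring libraries were separated by counting error. The *Sparc* ratio was 0.467 for EpiLCs over ESCs (0.455 to 0.478), 1.09 for EED226 over DMSO (1.05 to 1.12) and 0.339 for DMSO over ESCs (0.330 to 0.348). *Sparc* lies on chromosome 11, 55394500 to 55423183, minus strand.

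The comparison of EpiLCs with ESCs asks how these endoderm genes stand when ESCs move towards the post-implantation epiblast. *Gata6*, *Pdgfra* and *Dab2* were at least 2-fold higher and *Sparc* at least 2-fold lower, so 3 of the 7 genes were higher and 1 lower. Of 13535 genes that reached 1 TPM in one library or the other, 29.2% were higher and 11.6% lower, and of genes with at least 10 reads together 30% and 11.9%. Of those with such reads and a mean over the 4 libraries under 5 TPM, a class of low genes that holds 5 of the 7 genes, all but *Dab2* and *Sparc*, the shares were 44.5% and 16.4%. Within this class 2 of the 5 genes were higher, *Gata6* and *Pdgfra*, and 0 lower, so the share of higher genes among them was near that of the class. The median log2 ratio of the 7 genes was 0.74, against 0.33 over all 13535 genes and 0.77 over the low genes. By the filter of 1 TPM, 4 of the 7 genes would pass, *Gata4*, *Sox7*, *Dab2* and *Sparc*, and *Sox7* would pass only through the EpiLC library. With 1 TPM added in place of 0.1, only *Dab2* of the 7 stayed at least 2-fold higher. Over genes that reached 1 TPM everywhere, the median log2 ratio was 0.23 here, 0.076 in EED226 over DMSO and 0.16 in DMSO over ESCs. The direction of *Gata4* in EpiLCs was not settled, since its log2 ratio of 0.09 became -0.14 when all ratios were centred and -0.19 when the dependence on length was taken out.

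The comparison of EED226 with DMSO asks what inhibition of PRC2 does to genes of this kind in ESCs. All 7 genes had a ratio above 1, the side on which the median of all genes also lay. The share of all genes with a ratio above 1 was not counted. *Gata4*, *Gata6*, *Sox7* and *Pdgfra* were at least 1.5-fold higher, and 0 were lower. Of 12763 genes that reached 1 TPM in one library or the other, 5.26% were higher and 1.02% lower, and of genes with at least 10 reads together 7.21% and 1.75%. Among low genes, by the same mean over the 4 libraries, these shares were 16.5% and 4.49%, and 4 of the same 5 members were higher and 0 lower. The counting interval excluded a ratio of 1 for *Gata4*, *Sox7*, *Pdgfra* and *Sparc*, the last at 1.09-fold. The call for *Gata6* rested on 9 and 3 reads and was lost on centring, where its log2 ratio was 0.56. With 1 TPM added in place of 0.1, only *Gata4* of the 7 stayed past 1.5-fold, and *Sox7* fell just short of it at a log2 ratio of 0.58. The median log2 ratio of the 7 genes was 0.63, against 0.085 over all genes at 1 TPM and 0.19 over the low genes. Here too 4 of the 7 genes had at least 1 TPM in either library, with *Sox7* passing only through EED226.

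**Figure D2:**
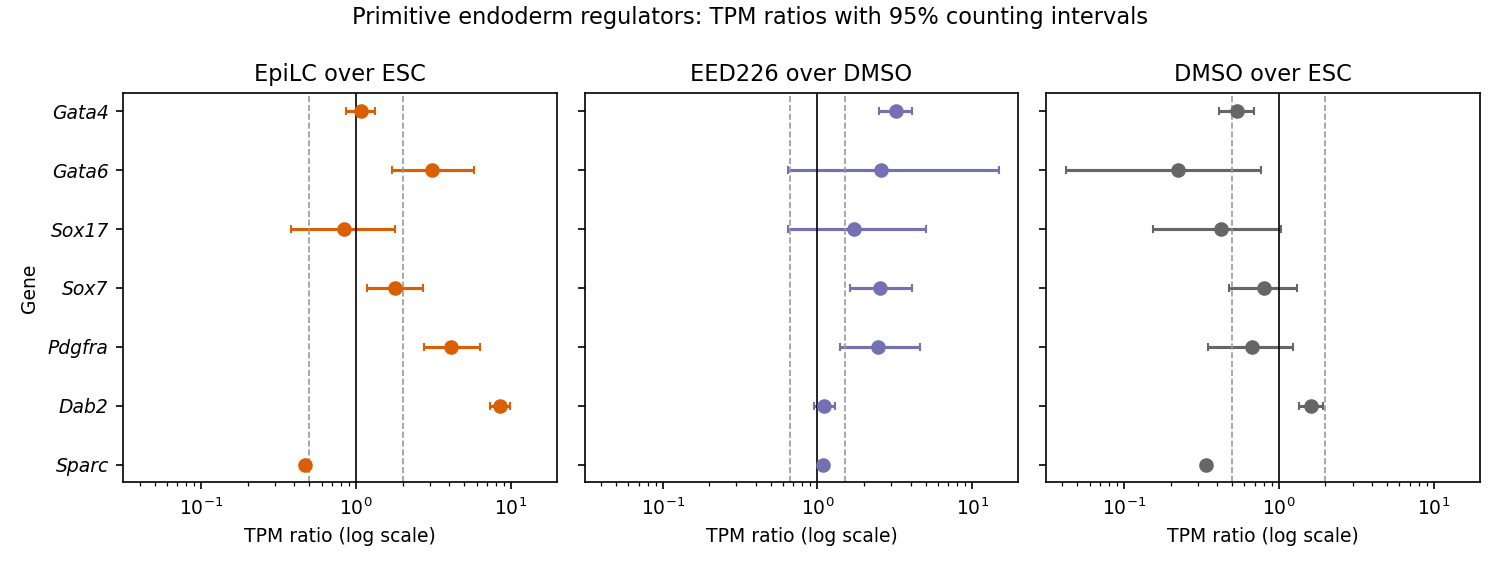
Ratio of TPM for each gene in EpiLCs over ESCs, EED226 over DMSO and DMSO over ESCs, on a log axis with exact 95% counting intervals. The solid line marks a ratio of 1 and the dashed lines the fold limits of 2 or, for EED226, 1.5. All 7 ratios lie above 1 with EED226, where the *Gata6*, *Sox17* and *Dab2* intervals cross 1. *Dab2* lies farthest right in EpiLCs at 8.47.

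The DMSO and ESC libraries bear on how the EED226 ratios are read, because the DMSO library is the denominator and the media differed. In DMSO over ESCs, 6 of the 7 genes had a ratio under 1, and *Gata6* and *Sparc* were at least 2-fold lower, while 0 were higher. The share of all genes with a ratio under 1 was not counted. Of the 6, the counting interval excluded 1 for *Gata4*, *Gata6* and *Sparc*. The median log2 ratio was 0.18 over all genes at 1 TPM and 0.27 over low genes. Of 12945 genes at 1 TPM, 9.02% were lower and 15.6% higher, of those with at least 10 reads together 9.64% and 17.1%, and of the low genes 17.7% and 27.9%. Only 3 of the 7 genes had at least 1 TPM in either of these libraries. Set against the untreated ESC library at 1.5-fold, the EED226 culture had 3 genes higher, *Gata4*, *Sox7* and *Dab2*, and *Sparc* lower, an alternative chosen after the data were seen. Of 13114 genes that reached 1 TPM in one of these libraries or the other, 34.6% were higher and 13.5% lower. *Gata6*, *Sox17* and *Pdgfra* were below 1 TPM in both and fall outside this filter, which *Sox7* passed only through EED226. The 3 of 7 genes and these shares thus cover unlike sets of genes. Only *Sox7* kept its higher call when the ratios were centred or the dependence on length was taken out, and *Gata6* then joined *Sparc* as lower under both, with *Sox17* also lower under the second. The EED226 values of *Gata6* and *Sox17* were below those of ESCs, with ratios of 0.574 (0.227 to 1.35) and 0.731 (0.346 to 1.49), and *Pdgfra* was at 1.65 (1.05 to 2.64), whose direction turned with the length correction as given above. Medium, vehicle, separate culture and any carry-over of feeder cells cannot be told apart between DMSO and ESCs. Each of these comparisons shares a library with another.

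*Gata4* and *Sox7* had the closest profiles of any 2 of the 7 genes, with a distance of 0.55 between centred log2 profiles over the 4 libraries. The next pairs were *Gata6* with *Pdgfra* at 0.80 and *Sox17* with *Sparc* at 0.87, and *Dab2* and *Sparc* were farthest apart at 2.92. *Sox17* lay nearly as close to *Gata4* and *Sox7*, at 0.91 and 0.92, and its 7 to 22 reads do not settle this order. *Gata4* and *Sox7* also lie on one chromosome, 672 kb apart, with 6 protein-coding genes between them. Of these, *Fam167a* was 1.54-fold higher with EED226 (1.27 to 1.88), at 3.46 TPM with EED226 and 2.24 TPM with DMSO. *Xkr6* had 21 and 12 reads, with an interval of the ratio of 0.707 to 3.35, *Mtmr9* had a ratio of 1.05 (1.00 to 1.11), *Pinx1* 0.944 (0.880 to 1.01) and *Tdh* 0.940 (0.923 to 0.957). *Blk* had 1 read with EED226 and 0 with DMSO. The stretch therefore holds genes near a ratio of 1 between the 2 members, including *Tdh* at 630 TPM with EED226 and 670.3 TPM with DMSO.

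**Figure D3:**
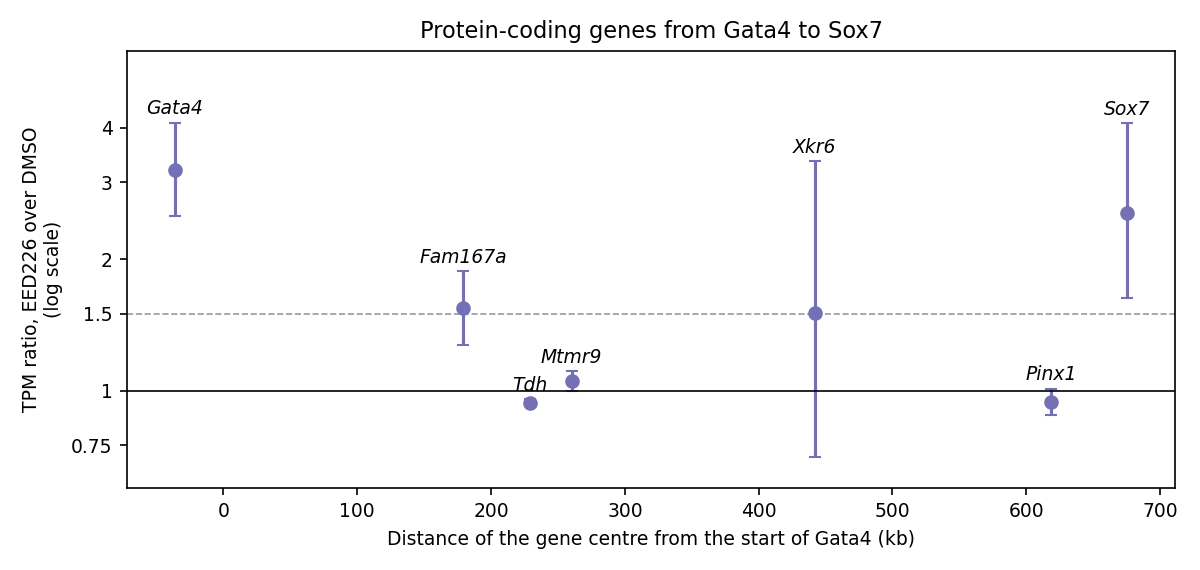
TPM ratio of EED226 over DMSO, on a log axis with exact 95% counting intervals, for protein-coding genes from *Gata4* to *Sox7*, placed by the distance of the gene centre from the *Gata4* start in kb. The dashed line marks 1.5-fold, and *Blk*, without reads with DMSO, has no ratio. *Gata4* at 3.19 and *Sox7* at 2.55 stand at the ends, with *Tdh*, *Mtmr9* and *Pinx1* near 1 between them.

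The nearest protein-coding genes of the other members showed no common direction. *Kit*, which encodes another receptor of the PDGFRA class and is the next gene after *Pdgfra*, was 1.77-fold higher with EED226 (1.65 to 1.91), at 19.9 TPM against 11.2 TPM with DMSO. In EpiLCs *Kit* was at 7.20 TPM against 38.0 TPM in ESCs, opposite to *Pdgfra*. *Mib1*, the gene before *Gata6*, had a log2 ratio of 0.69 with EED226 and 2.70 in EpiLCs. *Rbbp8*, the gene after *Gata6*, had log2 ratios of 0.23 and 0.81. *C9*, which starts 4.6 kb from *Dab2*, had 0 TPM in 3 libraries and 0.037 TPM in EpiLCs. *Ptger4*, 1056 kb away on the other side, had 8.03 TPM in EpiLCs and 0.792 TPM in ESCs, the direction of *Dab2*. Its log2 ratio was 0.28 with EED226. *Mrpl15*, next to *Sox17*, had log2 ratios of -0.17 with EED226 and -0.54 in EpiLCs. *Atox1*, next to *Sparc*, had -0.37 and -0.28. *Gsx2*, *Fat2* and *Rp1*, the remaining neighbours, were below 1 TPM in every library.

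The relatives of the transcription factors were examined as families. Of 8 listed genes of GATA factors and their cofactors, 4 were higher with EED226 and 0 lower, the members *Gata4* and *Gata6* with *Gata2* and *Gata3*, factors of blood and trophoblast. On centring 2 of these calls were lost, *Gata2* and *Gata6*, and the share of higher genes was 5.26% over all genes and 16.5% over low genes. *Gata3* had 1.03 TPM with EED226 and 0.477 TPM with DMSO, a ratio of 2.16 (1.37 to 3.52), and *Gata2* had 2.62 and 1.66 TPM, a ratio of 1.57 (1.22 to 2.04). *Gata1*, a factor of red cells, had a ratio of 1.00 (0.700 to 1.44). In EpiLCs *Gata3* was at 1.18 TPM against 5.71 TPM in ESCs, opposite to *Gata6*. Of 11 SOX genes, 3 were higher with EED226 and 0 lower, *Sox7*, *Sox9* and *Sox21*, with *Sox9* on 16 against 4 reads. *Sox2*, the pluripotency factor, was at 400.4 TPM with EED226 and 397 TPM with DMSO. *Sox18*, the third member of the SOX F subfamily with *Sox7* and *Sox17*, had a ratio of 0.960 (0.697 to 1.32).

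Other transcription factors of extraembryonic endoderm gave a mixed picture. Of 11 genes, 5 were higher and 3 lower in EpiLCs, and 3 were higher and 1 lower with EED226. Over all genes the shares were 29.2% and 11.6% in EpiLCs and 5.26% and 1.02% with EED226. Over low genes they were 44.5% and 16.4% in EpiLCs and 16.5% and 4.49% with EED226. *Klf6* had 254 TPM in EpiLCs and 29.5 TPM in ESCs, and *Foxq1* had 1.64 and 0.0909 TPM, while *Cited1* had 1.38 and 5.57 TPM. In DMSO over ESCs the ratios of *Klf6* and *Cited1* were 1.87 and 0.329, and *Foxq1* had 7 against 6 reads. With EED226 the higher genes were *Foxa1* at 0.658 TPM against 0.267 TPM with DMSO, *Cited1* at 3.05 against 1.83 TPM, and *Foxq1* on 16 against 7 reads, which was lost on centring. *Foxa2* was lower, on 7 reads with EED226 and 19 with DMSO. *Hnf4a*, a nuclear receptor of the visceral endoderm, was low with both treatments, at 5 reads with EED226 and 3 with DMSO, against 1.32 TPM in EpiLCs and 0.878 TPM in ESCs.

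The FGF-ERK and NANOG genes that act before *Gata6* differed between EpiLCs and ESCs and little with EED226. *Nanog* was at 101 TPM in EpiLCs and 778 TPM in ESCs, a ratio of 0.129 (0.125 to 0.134), beside the higher *Gata6*. *Dusp4* and *Dusp6*, phosphatases induced by ERK signalling, had ratios of 14.4 and 6.84, the receptor gene *Fgfr2* 9.74 and the ERK target *Egr1* 6.21. Other genes of the list ran the other way, with ratios of 0.225 for the ligand gene *Fgf4*, 0.290 for *Etv4*, 0.597 for *Etv5* and 0.896 for *Spry2*. Of 14 genes, 5 were higher and 3 lower in EpiLCs, and 1, *Fgfr3*, was higher with EED226 with 0 lower. The shares of all genes were 29.2% and 11.6% in EpiLCs and 5.26% and 1.02% with EED226. *Nanog* was at 264 TPM with EED226 and 236 TPM with DMSO. In DMSO over ESCs *Nanog* had a ratio of 0.303 (0.296 to 0.310) while *Gata6* was lower as well, so these genes did not run opposite in every comparison. There too 5 of the 14 genes were higher and 1 lower, beside 15.6% and 9.02% of all genes. *Dusp4*, *Dusp6* and *Fgfr2* had ratios of 5.81, 2.90 and 4.32 with DMSO over ESCs, and *Egr1* 0.523. By the study's methods the ESCs had been plated with a MEK inhibitor, whose part in these ratios was not tested.

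The main ligand gene of PDGFRA ran opposite to the receptor gene in EpiLCs. *Pdgfa*, which encodes that ligand in the early embryo, was at 9.59 TPM in EpiLCs and 119.7 TPM in ESCs, a ratio of 0.0801 (0.0675 to 0.0945), where *Pdgfra* was higher. *Pdgfc* was also lower in EpiLCs, with a ratio of 0.163 (0.135 to 0.197). In DMSO over ESCs the ratios were 0.300 for *Pdgfa* and 1.41 for *Pdgfc*. *Pdgfra* had 0.668 there (0.350 to 1.23), so *Pdgfa* and *Pdgfra* did not run opposite in every comparison. The EpiLC ratio of *Pdgfra* was under 2-fold once the dependence on length was taken out, as given above. With EED226, 3 of 8 genes of this list were higher, *Pdgfb*, *Pdgfd* and *Kit*, and 0 lower. The shares were 5.26% and 1.02% over all genes and 16.5% and 4.49% over low genes. *Pdgfd* had 22 against 7 reads. *Pdgfb* was at 6.83 TPM with EED226 and 4.42 TPM with DMSO, a call lost on centring. *Pdgfrb*, the paralogous receptor, had 1.39 TPM in EpiLCs and 1.19 TPM in ESCs, and a ratio of 0.946 with EED226 (0.773 to 1.16).

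*Dab2* was accompanied in EpiLCs by genes of the receptors that its protein serves in visceral endoderm. *Cubn*, which encodes cubilin, had 9.48 TPM in EpiLCs and 0.0863 TPM in ESCs, a ratio of 110 (72.9 to 174). *Lrp2*, which encodes megalin, had 71.4 and 11.4 TPM, and *Amn*, the cubilin partner, had 2.02 and 0.277 TPM. With EED226 *Cubn* and *Amn* had ratios of 0.859 (0.589 to 1.25) and 0.967 (0.537 to 1.75) and *Lrp2* 1.25 (1.21 to 1.30), next to 1.11 for *Dab2*. In DMSO over ESCs the ratios were 3.43 for *Cubn*, 2.92 for *Amn*, 1.70 for *Lrp2* and 1.61 for *Dab2*. Values above those of ESCs were thus not particular to EpiLCs. Of 18 visceral endoderm markers, 10 were higher and 2 lower in EpiLCs, with a median log2 ratio of 1.16, beside 29.2% higher over all genes and 44.5% over low genes with a median of 0.77. The 10 include *Ttr* on 3 against 0 reads and *Apoa2* on 4 against 0 reads. The 2 lower were *Apoa1*, on 1 against 14 reads, and *Bmp2*, on 3 against 23 reads. On centring 9 were higher and 3 lower in EpiLCs, and with the length trend removed 8 and 3. *Apoe* had 787 TPM in EpiLCs and 301 TPM in ESCs, and *Lefty1*, a NODAL antagonist also expressed in epiblast, 615 and 94.7 TPM. With EED226, 6 of the 18 were higher and 0 lower, *Apoa2*, *Apob*, *Rbp4*, *Cer1*, *Lefty1* and *Ihh*, of which *Apoa2*, *Cer1* and *Ihh* had 16 reads or fewer. On centring 3 remained higher, without *Apoa2*, *Apob* and *Cer1*, beside the share of 16.5% over low genes. The *Dab2* paralogue *Dab1* had 7.49 TPM in EpiLCs and 4.65 TPM in ESCs.

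The basement membrane genes that accompany *Sparc* in parietal endoderm split in EpiLCs. *Nid1*, which encodes nidogen, was lower with *Sparc*, at 14.8 TPM in EpiLCs and 133 TPM in ESCs, and so was the laminin gene *Lamc1*, at 119.5 and 300.2 TPM. *Lamb1* was higher, at 171 TPM in EpiLCs and 9.97 TPM in ESCs, as was *Serpinh1*, the collagen chaperone, at 209 and 12.9 TPM. In all, 3 of 11 genes were higher and 4 lower, beside 29.2% and 11.6% of all genes. In DMSO over ESCs the ratios were 0.248 for *Nid1*, 0.574 for *Lamc1*, 8.45 for *Lamb1* and 1.97 for *Serpinh1*. The directions of these genes were thus not particular to EpiLCs. With EED226, 0 of the 11 were higher or lower at 1.5-fold, with a median log2 ratio of 0.25. For this and the lists below, the EED226 shares higher and lower were 5.26% and 1.02% over all genes. Over low genes they were 16.5% and 4.49%. Of 11 surface or secreted markers of parietal and primitive endoderm, 4 were higher and 4 lower in EpiLCs. *Stra6*, the retinol carrier receptor, had 4.32 and 0.105 TPM and *Pth1r* 3.15 and 0.172 TPM, while *Vim* had 32.1 and 417 TPM and *Pga5* 0.185 and 10.8 TPM. In DMSO over ESCs *Pth1r* had a ratio of 7.77, *Vim* 0.376 and *Pga5* 0.316, in the same directions. *Stra6* had 0.594 there, on 4 against 9 reads. With EED226, 1 of the 11 was higher, *Plat* at 1.89 TPM against 0.823 TPM with DMSO, and *Srgn* was lower on 6 against 11 reads. Of 8 genes of the SPARC family and *Dab1*, 3 were higher and 0 lower in EpiLCs, and 0 were higher or lower with EED226, where centring made 1 gene lower, *Sparcl1* on 2 against 5 reads.

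**Figure D4:**
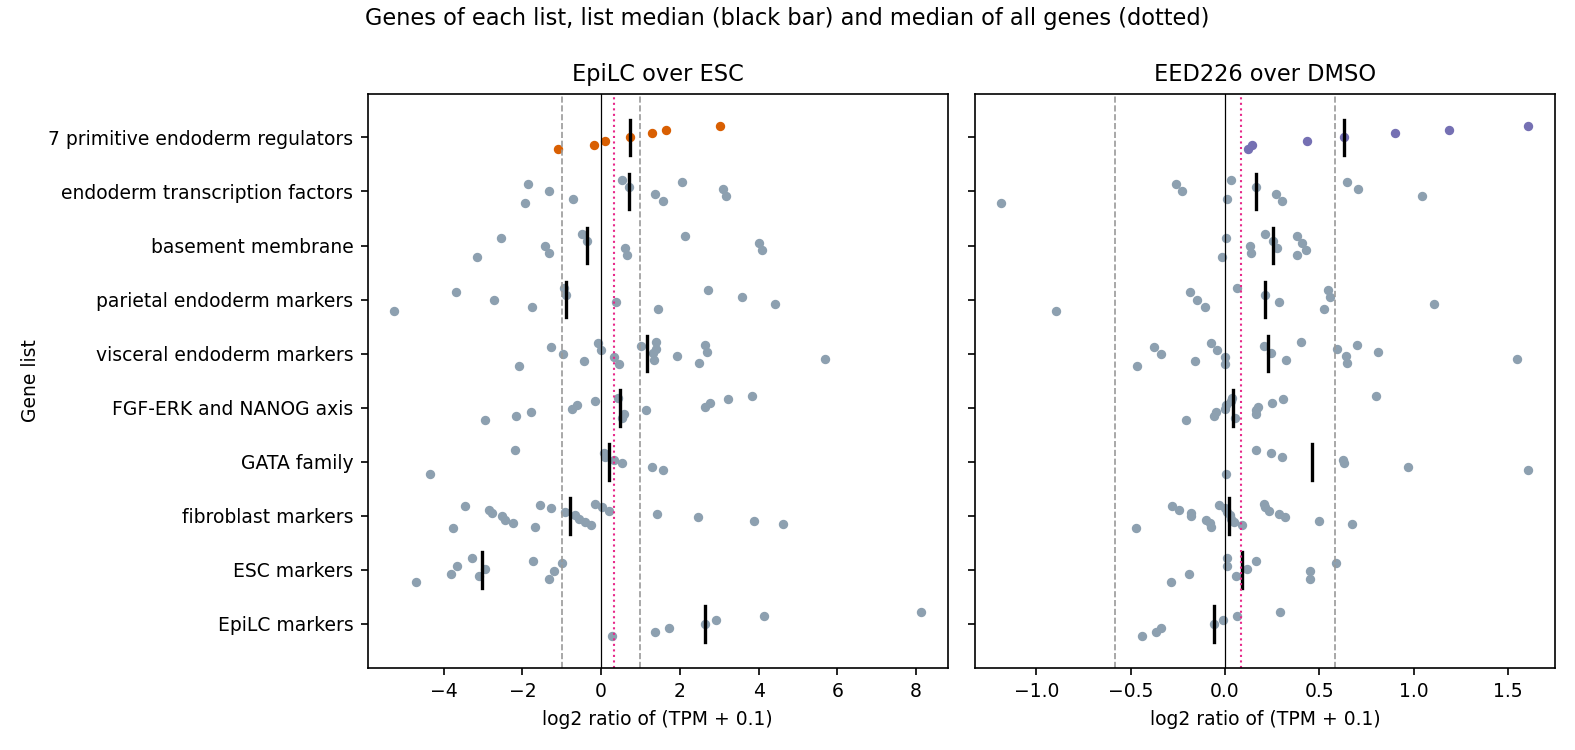
Log2 ratios of (TPM + 0.1) in EpiLCs over ESCs and EED226 over DMSO, with 1 point per gene, for the 7 primitive endoderm regulators and 9 gene lists. Black bars are list medians, the dotted line is the median of genes with at least 1 TPM in either library, and dashed lines are the fold limits. The 7 regulators have a median of 0.74 in EpiLCs and 0.63 with EED226, and the basement membrane genes stay within the 1.5-fold limits with EED226.

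Other cell types that express members of the group were checked by their markers. Fibroblasts express *Sparc* and *Pdgfra*, and feeder cells are fibroblasts. Of 22 fibroblast markers, 4 were higher and 10 lower in EpiLCs, beside 29.2% and 11.6% of all genes. Their summed level was 430.4 TPM in EpiLCs and 107 TPM in ESCs, of which *Tagln* alone was 337 and 13.5 TPM. The other higher markers were *Dcn*, at 3.21 TPM in EpiLCs and 0.122 TPM in ESCs, *Mmp2*, at 35.4 and 6.39 TPM, and *Acta2*, at 37.0 and 13.7 TPM. *Lum*, *Postn*, *Twist2* and *Fap* were at 0 in EpiLCs, and *Col1a1* was at 1.65 TPM in EpiLCs and 19.0 TPM in ESCs. With EED226, 1 of the 22, *Twist1*, was higher and 0 lower, and the summed level was 315 TPM with EED226 and 314 TPM with DMSO, beside the higher *Pdgfra*. In DMSO over ESCs, 12 of the 22 were higher and 0 lower, while *Sparc* and *Pdgfra* had ratios under 1. The shares there were 15.6% and 9.02% over all genes and 27.9% and 17.7% over low genes. Of 10 trophoblast markers, 4 were higher with EED226 and 0 lower, with *Esx1* at 2.38 TPM against 0.319 TPM with DMSO. Of 12 cardiac and endothelial markers, 1, *Nkx2-5*, was higher with EED226, and of 11 markers of definitive endoderm and primitive streak 2 were higher and 2 lower. For EED226 over DMSO the shares were 5.26% and 1.02% over all genes and 16.5% and 4.49% over low genes. The part of these cell types in the values of the 7 genes was not tested. The 4 core genes of PRC2 were within 1.5-fold with EED226, with *Eed* at 219.9 TPM against 258 TPM with DMSO.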

How the data were processed

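Polyadenylated RNA of 4 cultures was sequenced as 100 bp single reads from a stranded mRNA kit. According to the submitters' notes the tools were featureCounts 1.6.2, STAR 2.6.0a, Bowtie2 2.2.4 and bcl2fastq 2.20, with the build mm10. The authors deposited read counts per gene, gene lengths, reads per base of length and TPM, which was recomputed from the deposited counts without a difference beyond rounding. The 2 of 24421 entries that share a symbol were left out. The design assumed TPM values, and it was kept although counts were also given, since a count test needs replicates. A pseudocount of 0.1 TPM was used for log2 ratios, and all-gene shares required at least 1 TPM in either library. The members and the 16 other gene lists were chosen with earlier results of these data known. Besides the members, up to 5 genes of a list were named, the 2 with the highest mean and the 3 with the largest ratio among genes with at least 1 TPM in any library, and genes next to a member. Lists that check a label or another cell type may be named in full. *Foxa1*, *Foxa2*, *Fgfr3*, *Fgf4*, *Etv4*, *Etv5*, *Spry2*, *Sparcl1*, *Pdgfd*, *Sox9*, *Sox18*, *Plat*, *Srgn*, *Apoa1*, *Apoa2*, *Apob*, *Bmp2*, *Rbp4*, *Cer1* and *Ihh* fall outside this rule and were named after their values were seen. The scripts were tested on simulated data. The first 2 versions of the removal of the length trend, over 20 length groups, failed that test and were replaced before the values given here were computed. Alternatives covered the pseudocount, centring, gene length, fold limits and filters. Positions and overlaps came from GENCODE M21 on GRCm38, the build that mm10 names, and promoters from RefSeq. Protein features were planned and not done. The scripts ran on scipy 1.17.1, pandas 2.3.3, numpy 2.4.6 and matplotlib 3.10.9 under Python 3.11.15.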

Additional observations from a re-analysis of the deposited data

How the results depend on the processing

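No paired analysis was possible because each condition had 1 library, and for the same reason no library could be left out. Of 63 recomputed log2 ratios of the 7 genes in EpiLCs over ESCs, EED226 over DMSO and DMSO over ESCs, 45 stayed inside the counting interval, 18 moved outside it, and among these 63 the sign changed for *Gata4* alone, in EpiLCs over ESCs (-0.14 centred, -0.19 with the length trend removed). In EED226 over ESCs *Pdgfra* also changed sign, at -0.11 with the length trend removed. With a pseudocount of 1 TPM, which shrinks low genes, the higher genes numbered 1 of 7 in EpiLCs over ESCs in place of 3 and 1 in EED226 over DMSO in place of 4, the lower genes 1 in DMSO over ESCs in place of 2, the higher listed genes with EED226 8 in place of 25 and the lower ones 0 in place of 3. With EED226 over DMSO at 2-fold, 2 of the 7 were higher, and 3 with centring, with the length trend removed or where the counting interval must exclude 1. With the untreated ESC library in place of DMSO, an alternative added after the data were seen, 3 were higher and 1 lower, with centring 1 and 2, and with the length trend removed 1 and 3. Centring left 18 of the 25 higher listed genes with EED226. In DMSO over ESCs, 4 were lower with the length trend removed, and 4 lower and 1 higher at 1.5-fold.

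Over all genes, EED226 over DMSO had 671 higher and 130 lower, and with a pseudocount of 1 TPM 315 and 65, at 2-fold 146 and 48, with no filter 1655 and 690, at 5 TPM 265 and 29, and with at least 10 reads 1105 and 268. Among low genes 236 were lower. EpiLCs over ESCs had 3946 higher and 1572 lower, at 1.5-fold 2601 lower, and among low genes 2479 higher and 914 lower. DMSO over ESCs had 2018 higher and 1167 lower, at 1.5-fold 3655 and 1956, with no filter 1755 lower, and at 5 TPM 1158 and 711. The filters by reads were added after the data were seen. Depth limits *Gata6* and *Sox17* most, since all 4 of their libraries hold 36 reads or fewer.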

Other observations

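Among 13869 genes with at least 1 TPM in any library, the genes whose log2 profiles over the 4 libraries lay closest to *Gata4* were mostly short transcripts with few reads. *Mir6912*, at a distance of 0.17, had 1 to 4 reads, *1700084E18Rik*, at 0.20, had 3 to 14, *Mir1894*, at 0.45, had 3 to 7, and *Snord58b*, at 0.50, had 9 to 21. The deepest of the 5 was *Selenbp1*, at 0.48, with 2.26 TPM in EpiLCs, 2.32 TPM in ESCs, 2.75 TPM with EED226 and 1.35 TPM with DMSO.

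The genes closest to *Gata6* were *Car9*, *Pla2g4c*, *Tmem229b*, *Vamp8* and *Hecw2*, at distances of 0.12 to 0.26, with more reads than *Gata6* in every library. Profiles were taken with 0.1 TPM added, which flattens that of *Gata6*, at 0.0533 TPM with DMSO on 3 reads. Without it the *Gata6* ratio of EpiLCs over DMSO was 13.8 (4.37 to 70.3). *Vamp8*, which encodes a vesicle fusion protein, had 106 TPM in EpiLCs, 40.9 TPM in ESCs, 24.8 TPM with EED226 and 19.9 TPM with DMSO. *Pla2g4c* had 4.40 TPM in EpiLCs, 1.54 TPM in ESCs, 1.16 TPM with EED226 and 0.619 TPM with DMSO. Closest to the mean profile of the 7 genes were *Gm15706*, *Gm11423*, *Cpeb3*, *Tcf24* and *Tex19.2*, at 0.12 to 0.21. With 4 libraries, such likeness describes these libraries only.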
